A study of Mus musculus with 4 samples.

Results

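Genes for the proteins of the cytoplasmic ribosome were followed in mouse embryonic stem (ES) cells in which *Morc3* had been deleted and then put back. A gene was a member when its symbol had the form Rpl or Rps followed by a number, with or without a final a or x, or was *Rplp0*, *Rplp1*, *Rplp2* or *Rpsa*. This gave 76 of the 24054 genes counted, 46 of the large and 30 of the small ribosomal subunit. Of these, 1 lies on chromosome 13, 2 lie on chromosome 14 and 73 lie elsewhere.

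The ribosome is built from a large and a small subunit, each a scaffold of ribosomal RNA dressed with one copy of most of its proteins. The subunits are assembled in the nucleolus, and the acidic stalk proteins of the large subunit, made by *Rplp0*, *Rplp1* and *Rplp2*, recruit translation factors and form the exception, since the P1 and P2 proteins are present in more than one copy. The messages are among the most abundant of any dividing cell. Most of them start with a C followed by a run of pyrimidines, the TOP tract, through which mTORC1 and Larp1 control their translation as a group. Many also have intronless copies elsewhere in the genome, which makes short reads hard to place.

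The data are RNA-seq counts of 3 rescue cultures, named 3C, 3D and 3M after their clones, with 1 wild-type culture, wt26, at passage 46. All rescue clones come from 1 Morc3 ko clone, itself derived from wt26, that received a construct with wild-type *Morc3* cDNA and went through puromycin selection, so each stands for 1 clone of cells. A difference from wild type that the clones share cannot be told apart from a trait of that ko clone, and the spread between them does not cover it. All cells grew without feeder cells on gelatin in medium with serum and LIF. The ko culture without rescue was not analysed here, so every comparison is rescue against wild type. Since wild type had 1 library, the spread in every test came from the 3 clones, and wild type was assumed to vary as they do.

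*Morc3*, an ATPase that takes part in silencing endogenous retroviruses, had 655, 497 and 609 CPM (gene counts scaled to a common library size and composition) in 3C, 3D and 3M, against 161 CPM in wild type. All clones lay above wild type, with a log2 fold change of 1.87 (SE 0.17, adjusted p = 0.11, edgeR quasi-likelihood fit, Benjamini-Hochberg), and counts from the construct and from the chromosomal gene cannot be told apart. Total gene counts lay between 13620914 and 15479190 in the clones and were 18789457 in wild type. All 12 ES cell markers were expressed, with summed levels of 6164 to 6687 CPM in the clones and 6008 CPM in wild type. In all clones, 5 were above wild type (41.7%, against 28.7% of all genes tested) and 2 below (16.7%, against 28.4%), while 5 overlapped. Their log2 fold changes ran from -0.24 for *Lin28a* to 0.54 for *Nanog* (edgeR adjusted p = 0.41 and 0.40). The 16 markers of differentiating cells summed to 28.9 to 42.3 CPM against 27.1 CPM. The 10 fibroblast markers summed to 51.1 to 108 CPM against 80.2 CPM, with *Col3a1*, *Dcn* and *Lum* at 0 in every library.

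The annotated start of several of these genes shows the TOP tract directly. RefSeq promoter windows (GRCm38.p6, the assembly also called mm10) were at hand for 56 of the 76 genes. No window was at hand for *Rplp1*, *Rps20* or *Rpl36*. The sequences below are of some of the members named in the text and run from 10 bases before the annotated start to 18 bases from it on. Capitals mark a C followed by at least 4 pyrimidines, where such a run begins within 5 bases of the start. They are read on the strand of the gene, in the order *Rpl15* (chr14:18270969-18270996, minus strand), *Rps24* (chr14:24490668-24490695, plus), *Rps23* (chr13:90923112-90923139, plus), *Rplp2* (chr7:141447641-141447668, plus), *Rps10* (chr17:27635227-27635254, minus), *Rps6* (chr4:86857350-86857377, minus) and *Rplp0* (chr5:115559457-115559484, plus).
Rpl15: agaaagCCTTCTTCCTTTCCTCTggcgg
Rps24: gctggggtCCTTCCTTgcgcgttgatat
Rps23: cggctgggcggggCTTCCCgcaatgcct
Rplp2: cagcgtCTTCCTTTCgccgccggacgcc
Rps10: gcgcacgCCCCTTCCTTTCCagcctccg
Rps6: gaagtcgggCCTCTTTTTCgtgacgcct
Rplp0: cgggtttcgaggaccgcctggttctcct

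The runs differ in length and in where they begin, from 6 bases in *Rps23* to 17 in *Rpl15*, and the window of *Rplp0* holds none at its annotated start. A second annotated start of *Rps24* (chr14:24490743-24490770, plus), not printed above, had no such run. Such a run stood at the start of 27 of the 56 genes (48.2%), against 21.2% of all 27025 genes with a window. The motif CCGGAAG, known as a site of ETS factors, was found on either strand of the 300-base window in 23 of them (41.1%), against 9.93% of all genes. AAGATGG, the core of a YY1 site, was in 9 (16.1%) against 7.28%. TATAAA was in the 50 bases before the start of 0 of the 56, against 3.15% of all genes. A match describes the letters of the window, and the annotated start can lie some bases away from the one used in these cells.

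Together the 76 genes took 2.85%, 3.06% and 2.87% of all gene counts in 3C, 3D and 3M, against 2.99% in wild type. The wild-type share lay inside the range of the clones (2.93% ± 0.112, SD, n = 3), a difference of -0.063 percentage points. The difference was -0.13 without 3D, where wild type was above both other clones, -0.025 without 3C and -0.035 without 3M. The large subunit held 1.71%, 1.85% and 1.73% in the clones and 1.78% in wild type. The small subunit held 1.14%, 1.21% and 1.15% against 1.21%. The clones and wild type overlapped for the large subunit, and all clones were below wild type for the small subunit, where wild type was 0.049 percentage points above the mean of the clones (1.17% ± 0.036, SD, n = 3). The latter turned with the scaling, since the summed CPM of the small subunit was 11564, 12163 and 11446 in the clones and 11965 in wild type, with 3D above it. The ratio of large to small subunit counts was 1.49, 1.53 and 1.51 in the clones and 1.46 in wild type, so that all clones lay above wild type by a small margin. The large subunit counts include *Rplp0*, at 1774, 2006 and 1768 CPM in the clones and 1205 CPM in wild type. The summed CPM of the large subunit, with *Rplp0* in it, was 17262.5, 18633.1 and 17259.9 in the clones and 17492.9 in wild type, which overlap. The ratio was not computed without *Rplp0*, so it does not describe the subunits apart from this gene. In bulk RNA, a lower level in every cell and fewer cells with a high level cannot be told apart.

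Of the 76 genes, 74 had enough counts to be tested. edgeR's test called 0 of them at an adjusted p under 0.01, in either direction, as it called 0% of all 13267 genes tested as higher and 0.00754% (1 gene) as lower. The lowest adjusted p among the members was 0.19, for *Rplp0*. At an unadjusted p under 0.05, 11 members passed, 3 higher in rescue (4.05% of the 74, against 5.92% of all genes) and 8 lower (10.8%, against 4.42%). The 3 are *Rplp0*, *Rps24* and *Rpl15*, and the 8 are *Rps10*, *Rps20*, *Rplp1*, *Rpl36*, *Rps28*, *Rps14*, *Rpl9* and *Rpl8*, of which *Rps28*, *Rps14* and *Rpl9* were named after their values were seen. DESeq2's test, which is the tool of the study, called 1 of 72 members, *Rplp0*, as higher (1.39%, against 0.524% of the 9727 genes to which it gave an adjusted p) and 0 as lower.

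The median log2 fold change over the 74 tested members was -0.03, beside 0.01 over all genes tested and 0.00059 over the 2081 genes with at least 100 CPM in wild type. For 65 of the 74 (87.8%) the change lay within 0.25 of 0 on the log2 scale, against 67.2% of all genes and 88.0% of those abundant genes. All clones were above wild type for 18 members (24.3%, against 28.7% of all genes) and all below it for 29 (39.2%, against 28.4%), while 27 overlapped. The large subunit had a median of -0.03, with 10 members above, 15 below and 19 overlapping. The small subunit had a median of -0.06, with 8 above, 14 below and 8 overlapping.

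**Figure D1:**
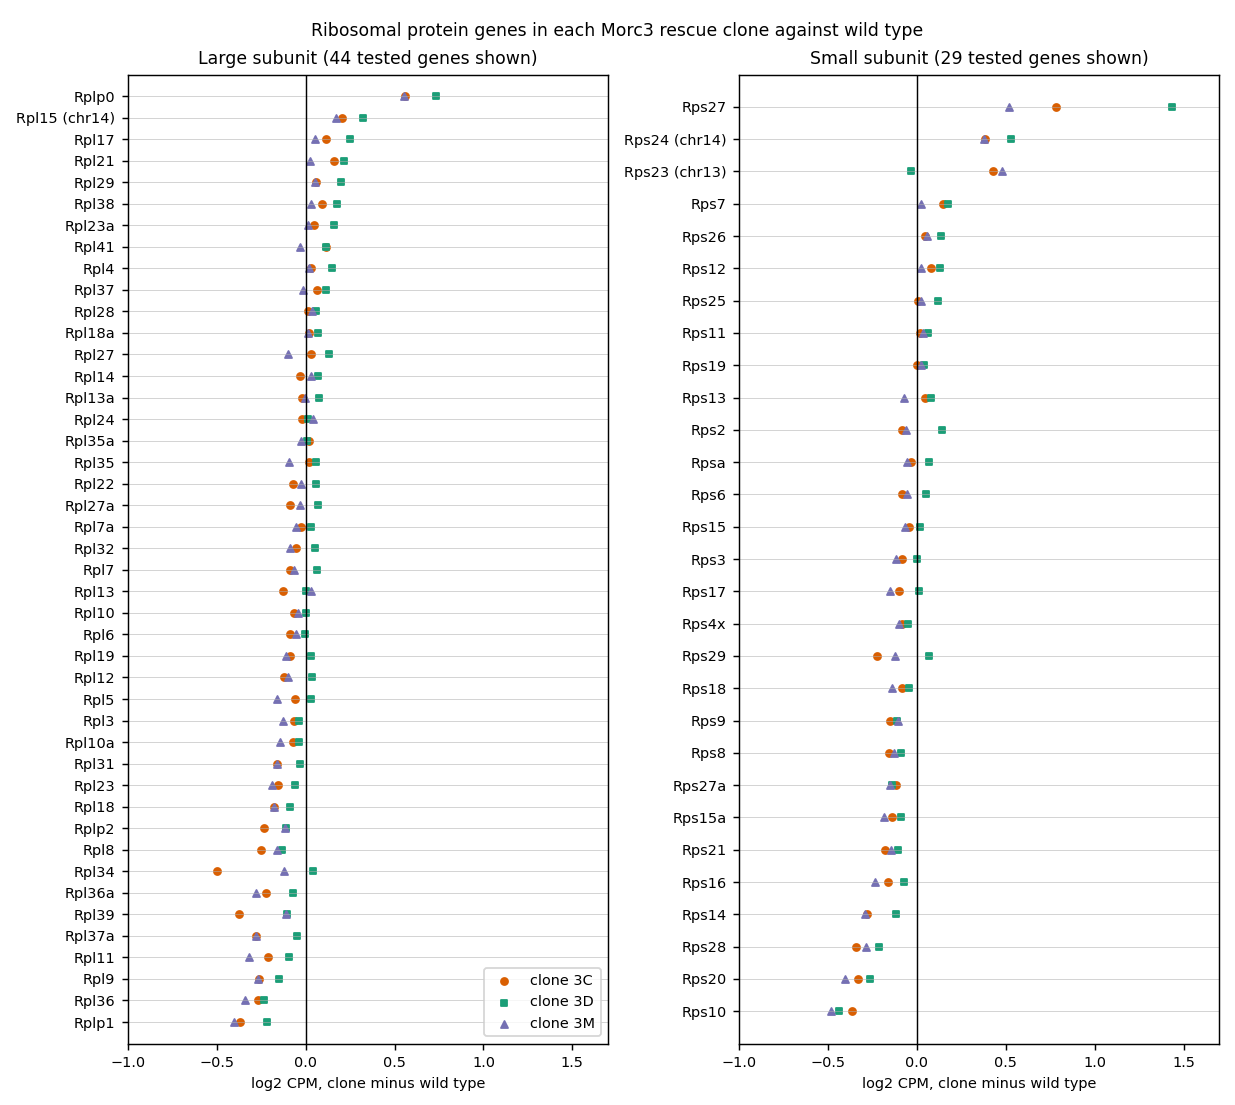
Difference in log2 CPM between each rescue clone and wild type (horizontal axis) for 44 tested large subunit genes (left) and 29 small subunit genes (right), 1 point per clone, in the order of the fitted change. Most points lie close to 0, and 3D (green squares) is the rightmost of the clones for most genes. *Rplp0*, *Rps24*, *Rps10* and *Rps27*, which has few counts, stand apart from 0 in all clones. *Rps23* stands apart in 3C and 3M only.

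The clones did not lie at the same level. Relative to wild type, the medians over the members were -0.07 in 3C, 0.03 in 3D and -0.07 in 3M on the log2 CPM scale, while the medians over all genes lay between -0.0027 and 0.0028. Clone 3D had the highest value of the clones for 67 of the 74 members (90.5%), against 36.2% of all genes and 37.8% of the genes with at least 100 CPM. It did so for 41 of the 44 large and 26 of the 30 small subunit genes. The size was small, with a median of 0.10 on the log2 scale between 3D and the mean of 3C and 3M. The count was 65 when CPM were taken without composition scaling and 67 with median-of-ratios scaling. Against wild type, 3D was higher for 44 members and lower for 30, or for 36 and 38 without composition scaling, so that its position above wild type depends on the scaling and its position above the other clones does not, under these scalings. There is 1 library per clone, so no test of a difference between clones was made.

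Other messages with a known TOP tract were also mostly highest in 3D. The 17 translation factors and related TOP genes include *Eef1a1* and *Eef2*, the elongation factors, and *Npm1*, a nucleolar chaperone. Of the 17, 15 were highest in 3D (88.2%, against 36.2% of all genes). The median difference between 3D and the mean of the others was 0.07. Of the 39 ribosome assembly factors and RNA polymerase I genes tested, 12 were highest in 3D (30.8%, against 36.2%). Another 19 were highest in 3M (48.7%, against 29.5% of all genes). The same median difference was -0.01 for this list. *Npm1* is on both lists. A lead of 3D was not limited to TOP genes, since 8 of the 12 ES cell markers were also highest in 3D (66.7%, against 36.2% of all genes). *Eef1a1* was at 6276, 6507 and 6408 CPM in the clones and 6006 CPM in wild type. Counts on the ribosomal RNA precursor Rn45s made up 16.0% of 3D, 15.9% of 3C, 14.7% of 3M and 15.4% of wild type, and its part in the order of the clones was not tested.

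*Rplp0* had the largest change of all members with more than a few counts. This gene (chr5:115559467-115563729) makes the protein that anchors the ribosomal stalk. It was at 1774, 2006 and 1768 CPM in 3C, 3D and 3M, against 1205 CPM in wild type. The lowest clone was well above wild type, and the mean of the clones was 1850 CPM (SD 136, n = 3). The log2 fold change was 0.62 (SE 0.09, adjusted p = 0.19 from edgeR's test with Benjamini-Hochberg adjustment), or 1.53-fold. DESeq2 gave an adjusted p of 0.000695, and edgeR's adjusted p was 0.000125 without clone 3D, 0.11 without 3C and 0.70 without 3M.

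The partners of *Rplp0* in the stalk lay on the other side of wild type. *Rplp1* was at 358, 398 and 350 CPM in the clones and 463 CPM in wild type, all clones below it, with a log2 fold change of -0.33 (SE 0.09, adjusted p = 0.32 in edgeR's test with Benjamini-Hochberg adjustment). *Rplp2* was at 276, 301 and 299 CPM against 324 CPM, again all below wild type, with a log2 fold change of -0.15 (SE 0.08, adjusted p = 0.55 from the same edgeR test). The counts of *Rplp0* over the mean counts of *Rplp1* and *Rplp2* were 5.60, 5.74 and 5.45 in the clones and 3.06 in wild type. This ratio separates the clones from wild type by far more than the clones differ among themselves (5.60 ± 0.147, SD, n = 3), though it joins a gene chosen for its change to partners with an opposite sign.

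Many genes around *Rplp0* lay above wild type as well. Of 40 other tested genes within 1 Mb on either side, 23 were above wild type in all clones and 5 below, where 28.7% and 28.4% of all genes were, with a median log2 fold change of 0.28, and the clone medians were 0.28, 0.27 and 0.28. The change was larger than that of *Rplp0* in 5 of them. *Ankrd13a*, which codes for a ubiquitin-binding protein, was at 189, 184 and 175 CPM against 108 CPM. *Mlec*, a glycan-binding protein of the endoplasmic reticulum, was at 287, 273 and 288 CPM against 175 CPM. *Cox6a1*, a subunit of cytochrome c oxidase, was at 136, 143 and 135 CPM against 87.4 CPM. For each of these the clones were within a narrow range well above wild type, with DESeq2 adjusted p values of 7.9e-06, 1.0e-05 and 0.00037 and edgeR adjusted p values of 0.11 for all of them. They were named after their values were seen. Whether the level of *Rplp0* and that of its neighbours have a shared origin was not tested.

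**Figure D2:**
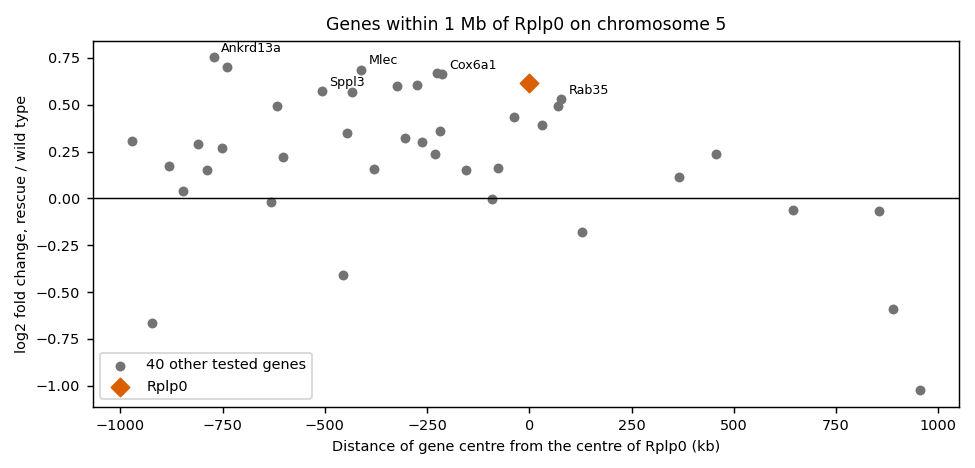
Fitted log2 fold change of rescue over wild type for *Rplp0* (orange diamond) and the 40 other tested genes within 1 Mb (grey), against the distance between gene centres in kb. Most genes on the left side and close to *Rplp0* lie above 0, several near its level, and the farthest genes on the right side do not.

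The other members that passed an unadjusted p of 0.05 and were higher in rescue lie on chromosome 14, whose genes were higher than wild type as a whole. *Rps24* (chr14:24490678-24496960), a small subunit protein that takes part in the processing of ribosomal RNA, was at 761, 844 and 757 CPM in the clones and 584 CPM in wild type. All clones were above wild type, with a log2 fold change of 0.43 (SE 0.08, adjusted p = 0.21 in edgeR's test with Benjamini-Hochberg adjustment). *Rpl15* (chr14:18267823-18270986), a large subunit protein, was at 228, 248 and 223 CPM against 198 CPM, also with all clones above, and its log2 fold change was 0.23 (SE 0.08, adjusted p = 0.44 from the same edgeR test). The medians over the 464 tested genes of chromosome 14 were 0.34, 0.34 and 0.35 in 3C, 3D and 3M. Both members thus lay on the side of their chromosome, *Rps24* above and *Rpl15* below its median of 0.36. Within 1 Mb of *Rps24*, 2 of 4 tested neighbours were above wild type in all clones and 0 below, with a median of 0.12. All 4 had a smaller change than *Rps24*, and their median in 3D was -0.08. Within 1 Mb of *Rpl15*, 2 of 4 were above and 0 below, with a median of 0.23. Over all genes, 28.7% were above and 28.4% below, and on chromosome 14 it was 78.7% and 3.02%.

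*Rps23* on chromosome 13 (chr13:90923122-90924732), a protein of the decoding centre of the small subunit, split the clones. It was at 246 CPM in 3C, 256 CPM in 3M, 179 CPM in 3D and 183 CPM in wild type. Clone 3D was level with wild type, and the other clones were well above it. The medians over the 512 tested genes of chromosome 13 had the same split, 0.48 in 3C, 0.03 in 3D and 0.48 in 3M. Over the 5 tested neighbours of *Rps23* within 1 Mb, the medians were 0.35 in 3C, 0.04 in 3D and 0.50 in 3M. The log2 fold change of *Rps23* was 0.31 (SE 0.20, adjusted p = 0.63, edgeR with Benjamini-Hochberg adjustment), and the fit without 3D gave 0.45 with an adjusted p of 0.0028.

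Over the members of chromosomes 13 and 14 the median was 0.31, against -0.03 over the 71 tested members elsewhere. With 3 genes in it, the former changes with the clone left out and lay between 0.25 and 0.38. Among the 71 genes elsewhere, 16 were above wild type in all clones (22.5%, against 25.9% of all genes on those chromosomes), 29 were below (40.8%, against 30.3%) and 26 overlapped.

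**Figure D3:**
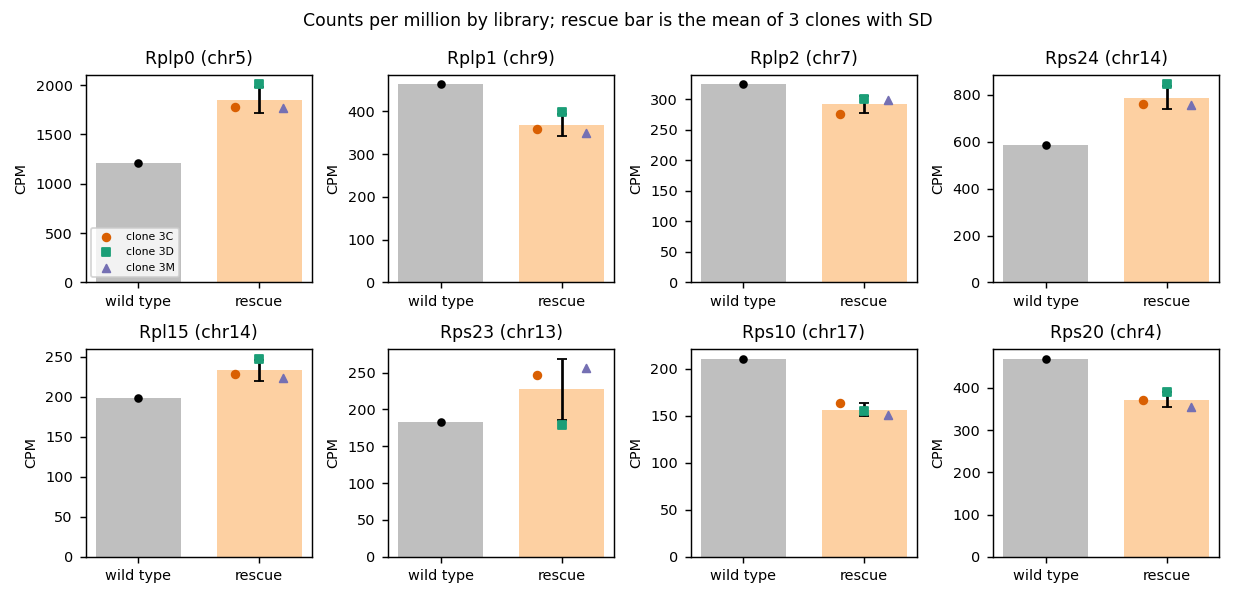
CPM of 8 ribosomal protein genes in wild type (grey bar, black point, 1 library) and in the rescue clones (orange bar, mean of 3 with SD, 1 point per clone), with each vertical axis starting at 0. *Rplp0*, *Rps24* and *Rpl15* are above wild type in all clones, *Rps23* in 3C and 3M only, and *Rplp1*, *Rplp2*, *Rps10* and *Rps20* are below it in all clones.

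The members furthest below wild type belong to both subunits and lie on 3 chromosomes. *Rps10* (chr17:27630415-27635244), a protein of the small subunit head, was at 163, 155 and 150 CPM in the clones and 211 CPM in wild type, with all clones well below. The log2 fold change was -0.43 (SE 0.07, adjusted p = 0.19 in edgeR's test with Benjamini-Hochberg adjustment). Of its 34 tested neighbours within 1 Mb, 17 were below wild type in all clones and 3 above, where 28.4% and 28.7% of all genes were, with a median of -0.08, and 1 of the 34 was lower than *Rps10* itself.

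*Rps20*, also of the small subunit head (chr4:3831584-3835655), was at 373, 390 and 355 CPM against 469 CPM, with a log2 fold change of -0.33 (SE 0.07, adjusted p = 0.25 from edgeR's test with Benjamini-Hochberg adjustment). *Rpl36*, a large subunit protein on chromosome 17, was at 202, 207 and 192 CPM against 243 CPM, with a log2 fold change of -0.28 (SE 0.07, adjusted p = 0.31 in the same edgeR test). In both, every clone was below wild type and the clones were close to each other. *Rps10*, *Rps20*, *Rplp1* and *Rpl36* were the members with the largest negative changes, and none of them passed the threshold with all clones in the fit. Of 6 tested neighbours of *Rps20* within 1 Mb, 2 were above wild type in all clones and 3 below, with a median of -0.13. Of 10 around *Rplp1*, 4 were above and 1 below, with a median of 0.06. Over all genes, 28.7% were above and 28.4% below. The neighbours of *Rpl36* were not looked up.

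Without clone 3D, edgeR's test called 6 members at an adjusted p under 0.01. *Rplp0*, *Rps24* and *Rps23* were higher (4.05% of 74, against 2.51% of all genes) and *Rplp1*, *Rps20* and *Rps10* lower (4.05%, against 0.665%). Their adjusted p values in that fit were 0.000125, 0.0026 and 0.0028 for the former and 0.0032, 0.0049 and 0.0059 for the latter. With 2 clones in the fit, these calls describe clones 3C and 3M against the wild-type library. Without 3C or without 3M it called none.

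Several members also have roles outside the ribosome, and 0 of those named here were called. *Rpl5* and *Rpl11*, whose free proteins hold Mdm2 back from p53, were at 176, 187 and 164 CPM against 183 CPM and at 134, 146 and 124 CPM against 155 CPM. *Rpl5* overlapped wild type (log2 fold change -0.06, SE 0.09, adjusted p = 0.85 in edgeR's test), and *Rpl11* was below it in all clones (-0.20, SE 0.10, adjusted p = 0.55 in edgeR's test). Of 6 genes of the Mdm2 and p53 arm, edgeR called 0 and 0 passed an unadjusted p of 0.05, with a median of 0.08. *Cdkn1a*, the p53 target that stops the cell cycle, was at 30.0, 24.5 and 27.7 CPM against 25.2 CPM, which overlap.

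*Rps6*, whose protein is the classic substrate of S6 kinase, was at 198, 217 and 202 CPM against 210 CPM. *Rpsa*, also known as the laminin receptor, was at 822, 880 and 809 CPM against 841 CPM. *Rps27a*, made as a fusion to ubiquitin, was at 227, 223 and 221 CPM against 246 CPM, and *Rpl41*, the shortest of the proteins, was at 336, 337 and 304 CPM against 311 CPM. The clones overlapped wild type in *Rps6*, *Rpsa* and *Rpl41* and were below it in *Rps27a*, by 0.14 on the log2 scale.

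The translation of these messages is set by a pathway that was read here only through its own messages. Of 17 genes of mTORC1, Larp1 and Myc, edgeR called 0, with a median of -0.05. Before adjustment, 2 of the 17 fell below 0.05, 1 higher and 1 lower in rescue. Among all 13267 genes tested, 1372 did so, which is a similar share. *Eif4ebp1*, a repressor of cap-dependent translation that mTORC1 switches off, was at 149, 164 and 147 CPM against 225 CPM, all clones far below wild type. Its log2 fold change was -0.55 (SE 0.08, adjusted p = 0.19 in edgeR's test with Benjamini-Hochberg adjustment), and DESeq2 called it with an adjusted p of 0.0097. DESeq2 called 1 of these 17 genes, and 64 of all 13267 genes that edgeR tested, in either direction. *Max*, the partner of Myc, was at 98.8, 96.4 and 99.3 CPM against 80.1 CPM, and its log2 fold change was 0.29 (adjusted p = 0.31 in edgeR's test). *Larp1* itself was at 530, 534 and 558 CPM against 573 CPM, with all clones below wild type (log2 fold change -0.08, SE 0.06, adjusted p = 0.67 in edgeR's test). *Myc* was at 134, 92.8 and 121 CPM against 115 CPM, where clones and wild type overlap.

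Of the 39 assembly factors and RNA polymerase I genes, edgeR called 0. In all clones, 7 were above wild type (17.9%, against 28.7% of all genes) and 17 below (43.6%, against 28.4%), with a median of -0.03. DESeq2 called 1 of the 39, *Taf1d*, as higher, where it called 0.524% of the 9727 genes with an adjusted p. *Taf1d*, a part of the factor that brings RNA polymerase I to its promoter, was at 240, 240 and 260 CPM against 162 CPM. Its log2 fold change was 0.61 (SE 0.08, edgeR adjusted p = 0.16, DESeq2 adjusted p = 0.00092). *Tpt1*, a TOP gene on chromosome 14, was at 696, 742 and 689 CPM against 533 CPM, a log2 fold change of 0.41 (SE 0.07, adjusted p = 0.19 in edgeR's test), and edgeR called 0 of the 17 TOP genes, whose median was 0.03.

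The naming rule leaves out a few ribosomal genes. Of these, 4 were listed, with a median of 0.06, and edgeR called 0 of them. *Gnb2l1*, the scaffold protein also called Rack1, was at 1081, 1119 and 1048 CPM against 1136 CPM. Among 8 tested paralogs named as like genes, the median was 0.02 and edgeR called 0. *Rpl22l1*, the paralog of *Rpl22*, was at 26.1, 25.1 and 24.2 CPM in the clones and 40.0 CPM in wild type, with all clones far below and close to each other. The log2 fold change was -0.67 (SE 0.10, adjusted p = 0.19 in edgeR's test with Benjamini-Hochberg adjustment, DESeq2 adjusted p = 0.054). *Rpl22*, named here beside its paralog, was at 287, 314 and 296 CPM against 301 CPM, which overlap. *Rps27rt* was at 0 in all libraries.

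The proteins enter the ribosome in nearly equal numbers, yet the level of their messages, as CPM per kb of transcript, covered a wide range in wild type. The median over the 76 genes was 369 CPM per kb. The highest were *Rpl8* at 1469, *Rpl4* at 1234, *Rps24* at 1126 and *Rpl32* at 1094 CPM per kb. In the clones *Rpl8*, which binds the ribosomal RNA near the catalytic centre, was at 1235, 1341 and 1314 CPM per kb and *Rpl4*, which lines the exit tunnel of the nascent chain, at 1258, 1368 and 1250 CPM per kb. *Rps24* was the highest of all in each clone, at 1467, 1626 and 1459 CPM per kb.

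The lowest tested genes were *Rps27* at 1.98, *Rpl34* at 2.08, *Rps15a* at 36.6 and *Rpl29* at 55.7 CPM per kb. Length matters for this order. The RefSeq-linked transcript used for *Rps15a* has 5179 bases for a coding sequence of 390, and per kb of coding sequence its level was 487 CPM, place 52 of 76 in place of 72. *Rps20*, with 3706 bases for 357 coding, went from place 65 to place 8, and *Rpl41* from place 16 to the top, at 4141 CPM per kb of coding sequence. *Rpl8*, *Rpl4* and *Rps24* took places 2, 3 and 4. Over the 76 genes the rank correlation of the orders was 0.82, and 28 kept their place within 5.

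**Figure D4:**
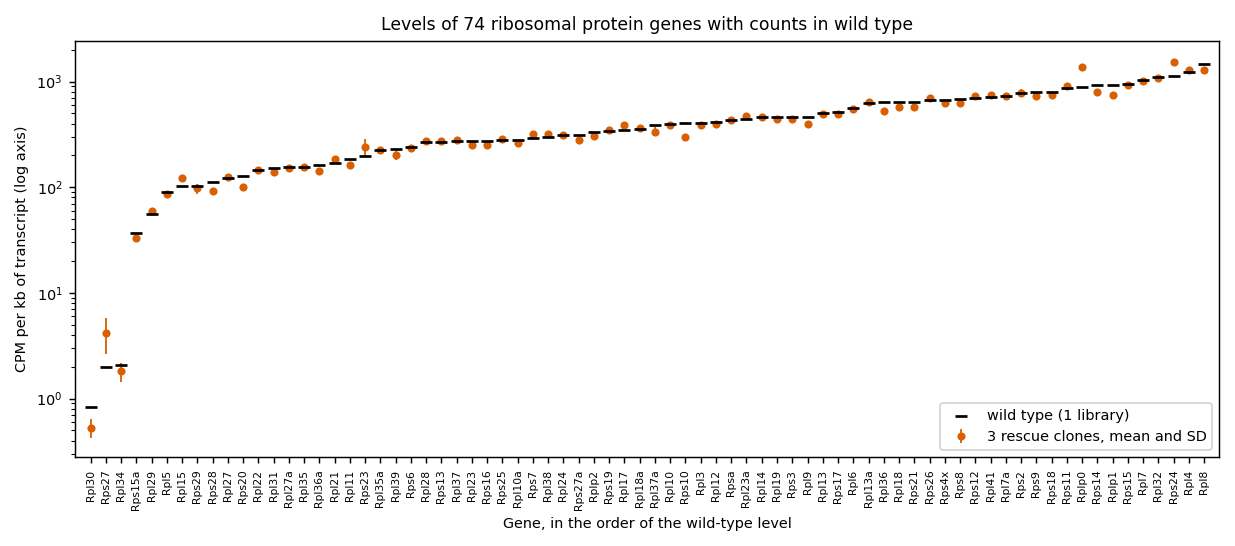
Level of 74 of the 75 ribosomal protein genes with counts in wild type, as CPM per kb of transcript on a log axis, in the order of the wild-type level (black bars, 1 library), with the mean and SD of the 3 rescue clones (orange). The clones follow the wild-type order closely, while *Rplp0*, *Rps24* and *Rps27*, which has few counts, lie above it. *Rpl30*, *Rps27* and *Rpl34* are far below all others.

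Of the members, 4 had almost no counts. *Rpl26* had 0 counts in every library, which allows up to 3 counts in each, *Rpl30* had 5, 4 and 4 counts in the clones and 9 in wild type, *Rpl34* had 9, 15 and 14 against 19, and *Rps27* had 17, 30 and 16 against 13. Every other member had at least 100 counts in every library. The fitted log2 fold change of *Rps27*, 1.08, was the largest of all members, but it rests on 13 wild-type counts (SE 0.57, adjusted p = 0.56 in edgeR's test with Benjamini-Hochberg adjustment), and the spread over the clones was 0.47 on the log2 CPM scale, also the largest. *Rps23* at 0.28 and *Rpl34* at 0.28 followed, and the median of the members was 0.07.

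Such low counts do not have to mean low messages, since the counter leaves out read pairs that map to more than one place. Multimapping pairs made up 7.85% to 8.21% of all pairs in the 4 libraries. To see how much of each message can be placed, every stretch of 50 bases, the length of 1 read, was looked up in the transcripts of all other genes of the GENCODE annotation, pseudogenes included. Nearly every member had stretches that were also found in another gene. The median share found once was 44.0%. It was lowest for *Rps27* at 1.35%, *Rpl35* at 4.91% and *Rpl5* at 6.16%.

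Low shares and low counts did not go together in every gene. *Rpl35* had 2795 and *Rpl5* 3491 wild-type counts at those low shares, while *Rpl26* at 28.7%, *Rpl30* at 23.6% and *Rpl34* at 49.4% had almost none. *Rpl29*, which shares stretches with 84 other genes, 80 of them pseudogenes, had 779 counts. Across the 76 genes, which share 1 library, the rank correlation of the share with the wild-type level was 0.07 per kb of transcript and 0.44 per kb of coding sequence. Against the log2 fold change it was -0.05 over the 74 tested genes. A pair can still be placed by its mate, and copies in the genome that no annotated transcript covers were not looked up. Why these 4 genes have so few counts was not tested.

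**Figure D5:**
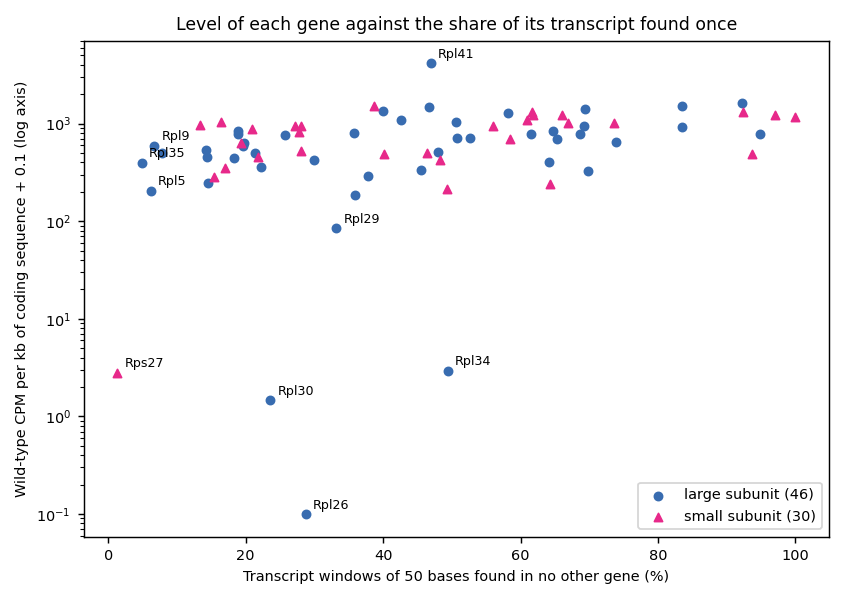
Wild-type level of each of the 76 genes, as CPM per kb of coding sequence plus 0.1 on a log axis, against the percent of its 50-base transcript stretches found in no other annotated gene. *Rpl26*, *Rpl30*, *Rpl34* and *Rps27* lie far below the rest at shares from 1.35% to 49.4%, and *Rpl5*, *Rpl9* and *Rpl35* lie among the other members at shares from 4.91% to 6.68%.

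Reads on the opposite strand were few. They came to 0.0864% to 0.105% of the counts on the members in the clones and 0.0984% in wild type. The 7 listed rows for ribosomal protein pseudogenes held 654, 806 and 900 counts in the clones and 937 in wild type, against 388604, 448112 and 444729 and 561818 counts on the members.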

How the data were processed

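RNA was extracted with Trizol, depleted of ribosomal RNA and made into directional libraries (NEBNext), read as 50 bp pairs, and mapped to mm10 with STAR, which counted pairs per gene, per the study's methods. The gene annotation was not named in the sources used here. The deposited values are raw counts, and the authors left multimapping pairs out. The reverse-strand column was used, and pairs not assigned to a gene were left out, so that 45.2% to 52.7% of pairs entered. Clones were numbered in accession order.

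Counts were filtered by filterByExpr, scaled by TMM and tested with edgeR 4.0.16 (R 4.3.3), with Benjamini-Hochberg adjustment over all genes and a threshold of 0.01. Log2 CPM used a prior count of 2. Alternatives were DESeq2 1.42.0, limma-voom (limma 3.58.1), other scalings, filters and strands, and leaving out each clone. The p-values compare rescue with wild type, with the spread taken from the clones alone and wild type assumed to vary as they do. A count of 0 allows up to 3, for counting error only.

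The members and gene lists were chosen with earlier results of these data known. Named were the members of chromosomes 13 and 14, the 4 largest changes each way, any called, the 4 highest and lowest levels, the 3 largest spreads, the 3 lowest mapping shares, those failing the filter, the stalk proteins, *Rpl5*, *Rpl11*, *Rps6*, *Rpsa*, *Rps27a* and *Rpl41*. Results of single genes that are not reported here were left out of the text and plots.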

Additional observations from a re-analysis of the deposited data

How the results depend on the processing

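The median change of the members, -0.03, lay between -0.070 and -0.016 under every scaling, filter, tool and clone left out, and the medians of both subunits also stayed below 0. DESeq2 called 1 member in place of 0, and edgeR called from 0 to 6 with a clone dropped, 6 without 3D. The median over chromosomes 13 and 14, 0.31, ranged from 0.25 to 0.38 as single clones were dropped. Changes close to 0 turned sign: *Rpl32* (-0.03) was at 0.026 in the unstranded counts and from -0.071 to 0.0012 with a clone dropped, *Rpl35* (-0.0041) at 0.029 unstranded, at 0.00998 with TMM factors taken without chromosomes 13 and 14 and from -0.036 to 0.040 with a clone dropped, and *Rpsa* (-0.0068) at 0.0072 with those factors, at 0.0055 without 3C and from -0.045 to 0.017 with a clone dropped. In unstranded counts, *Rpl5* and *Rpl32* had 2770 and 9288 wild-type counts, against 3491 and 10784 on their strand. The cause of these shifts was not tested. The count of members highest in 3D was 65 to 67 under the scalings, an alternative chosen after seeing the data, as were the median without *Rplp0* and that over members with at least 100 counts. No paired analysis was possible because wild type had 1 library. With 1 wild-type library, a change in that culture and a change shared by the clones cannot be told apart.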
